A study of Rattus norvegicus with 50 samples.

Results

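Epithelial serine proteases are trypsin-like enzymes, most of them tethered to the cell surface, that cut receptors, channels and other proteases on epithelia. The 8 genes described here are Prss30, Tmprss9, Prss8, Tmprss4, St14, Prss22, Prss27 and Tmprss2, out of 25208 genes tested on the arrays. Prss30 and Tmprss9 were chosen by their own rise in exposed rats, so their exposed-minus-control values are given as a description with no test. The other 6 are relatives by family, and their exposure values were tested. All 8 passed the filter on dim probes.

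The lungs came from male F344 rats, 12 weeks old per the labels. Exposed rats breathed an aerosol of TiO2 P25 nanoparticles at 10 mg/m3 through the nose during 4 weeks, on 5 days of each week and for 6 h each time, and control rats breathed air. Total RNA of the accessory lobe was hybridised to 1-colour Agilent arrays at D0, D3, D28, D90 and D180, counted in days from the last exposure, with 5 control and 5 exposed rats at each time and 1 array per rat, 50 arrays in all. No genetic alteration is named for any group, and the rats of later days were older by that many days.

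The cell surface proteases work as cascades. Matriptase (St14) can activate prostasin (Prss8), and prostasin favours cutting of the epithelial sodium channel, which sets the liquid layer on alveoli and airways. Both enzymes and Tmprss4 are known as channel-activating proteases, whereas Tmprss2 is best known for cutting viral surface proteins in the airway. Prss22 (tryptase epsilon), Prss27 (marapsin) and Prss30 are tryptase-like enzymes whose genes lie next to each other, and Tmprss9 (polyserase-1) carries several protease domains in a single chain.

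Each signal below is the log2 of the background-subtracted array signal after quantile normalization, read from the brightest probe of the gene, and each change is a difference of such log2 values. Levels of different genes come from different probes and are not set against each other. The arrays lay on 7 slides. Those of D0, D3 and D28 shared 4 slides and those of D90 and D180 shared 3, save 1 exposed rat of D3, so a step between D28 and D90 cannot be told apart from the slides and is not described as a change. On each array 68.7% to 84.5% of spots were well above background, and no array stood below 0.972 in its lowest correlation with an array of its own group. The markers of lung were present: Sftpc (alveolar type 2 cells), Scgb1a1 (club cells), Ager (alveolar type 1 cells), Epcam (epithelium) and Foxj1 (ciliated cells) were well above background on 50 of 50 arrays. In RNA of a whole lobe, fewer cells of a type and less RNA per cell cannot be told apart, and which cells carried the proteases was not measured.

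Promoter sequences show what lies at the start of the 2 genes chosen for their rise and of 2 relatives that gave no call. RefSeq promoters (build GRCr8, 250 bases before to 50 after the annotated start) were given for 4 of the 8 genes, and they are printed 5′ to 3′ with script-found matches in capitals. The Prss30 window is chr10:13515556-13515855 on the minus strand (its start lies inside the gene record), the Tmprss9 window chr7:9481805-9482104 on the minus strand, the Prss27 window chr10:13574276-13574575 on the plus strand and the Tmprss2 window chr11:50443065-50443364 on the minus strand.
Prss30: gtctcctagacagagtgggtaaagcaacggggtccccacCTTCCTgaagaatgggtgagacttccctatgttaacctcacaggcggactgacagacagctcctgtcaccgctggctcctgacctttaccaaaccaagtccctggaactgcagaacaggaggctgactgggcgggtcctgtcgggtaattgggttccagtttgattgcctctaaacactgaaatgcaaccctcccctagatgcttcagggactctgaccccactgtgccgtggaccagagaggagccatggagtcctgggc
Tmprss9: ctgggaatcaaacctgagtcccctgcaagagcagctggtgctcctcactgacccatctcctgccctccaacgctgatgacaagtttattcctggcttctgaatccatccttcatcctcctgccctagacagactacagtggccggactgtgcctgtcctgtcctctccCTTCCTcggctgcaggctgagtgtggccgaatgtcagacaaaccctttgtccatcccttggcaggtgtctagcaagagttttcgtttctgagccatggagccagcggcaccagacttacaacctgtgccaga
Prss27: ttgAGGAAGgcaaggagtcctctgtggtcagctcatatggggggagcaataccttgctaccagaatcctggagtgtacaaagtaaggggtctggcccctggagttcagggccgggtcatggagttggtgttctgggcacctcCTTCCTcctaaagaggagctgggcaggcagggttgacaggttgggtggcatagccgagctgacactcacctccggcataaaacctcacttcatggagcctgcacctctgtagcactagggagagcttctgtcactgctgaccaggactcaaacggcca
Tmprss2: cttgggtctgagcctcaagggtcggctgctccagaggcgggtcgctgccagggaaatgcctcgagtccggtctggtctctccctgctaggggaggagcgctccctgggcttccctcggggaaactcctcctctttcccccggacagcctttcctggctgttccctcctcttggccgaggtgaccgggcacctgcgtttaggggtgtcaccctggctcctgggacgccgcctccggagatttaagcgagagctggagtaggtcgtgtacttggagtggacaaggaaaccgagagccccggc
Capitals mark AGGAAG on either strand, the core that ETS factors of the epithelial Elf3 type bind. It stood at 1 place in the Prss30 window, its first base at -211 from the start, at 1 place in the Tmprss9 window, its first base at -82, at 2 places in the Prss27 window and at none in the Tmprss2 window. Of all 33469 promoters of this length in the table, 34.5% hold it, so it does not set these genes apart.

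The other motifs searched on both strands had no match in the 4 windows. They were the TATA box TATAAA (in 14.2% of all promoters), the AP-1 element TGANTCA (7.33%), the STAT element TTCNNNGAA (8.87%), the NF-kB element GGGANTTTC (1.15%), the E-box CACGTG (6.42%), the grainyhead element AACNNGTT (4.23%) and the forkhead element TGTTTAC (3.78%). A missing match says only that these letters are not in these windows.

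The sequences of 2 array probes are shown because they read genes with a raised signal and share a stretch of letters. They are the dimmer Tmprss9 probe, at chr7:10321365-10321424 of build rn4, and the brightest Tmprss4 probe, at chr8:48121621-48121680, both read from the minus strand.
Tmprss9: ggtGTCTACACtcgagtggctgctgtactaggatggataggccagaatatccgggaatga
Tmprss4: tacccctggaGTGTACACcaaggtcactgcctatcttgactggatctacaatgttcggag
Capitals mark GTNTACAC, found in 0.346% of the 30367 probes. The 2 probes were picked for sharing it, so that share cannot measure how unusual the pair is. A link between the stretch and a raised signal was not tested. Read from its first base, the Tmprss9 probe has no stop codon before its last 3 bases, which are TGA. Where the probes lie within the exons and UTRs of their genes was not analysed here.

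Prss30 had the highest exposed-minus-control value of the 8 proteases at D0, and a value close to that of the control rats by D180. Its product is a membrane-anchored protease that can activate the epithelial sodium channel. The files place its single probe at chr10:13226073-13226132 of build rn4, and it was well above background on all 50 arrays.

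At D0 the 5 control rats had Prss30 signals of 7.94, 7.55, 7.96, 8.12 and 7.87, and the 5 exposed rats 11.43, 11.51, 11.25, 11.82 and 11.35. The groups were far apart, with means of 7.89 ± 0.21 in control and 11.47 ± 0.22 in exposed rats (SD, n = 5 each), a 12.0-fold difference. At D3 the control rats had 8.48, 8.18, 7.85, 8.11 and 8.04 and the exposed rats 10.38, 10.36, 10.61, 10.55 and 10.44. The groups were again apart, with a mean difference of 2.33, 5.03-fold, and the exposed rats of D3 all lay under those of D0.

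At D28 the exposed rats had 8.85, 8.57, 9.08, 8.76 and 8.5 against 8.2, 8.18, 7.96, 8.37 and 7.81 in control rats. The difference was down to 0.65, but the lowest exposed rat was still above the highest control rat. At D180 the values were 8.3, 8.4, 8.38, 7.99 and 8.32 in exposed and 8.08, 8.09, 7.9, 7.94 and 7.76 in control rats, so that 4 of the 5 exposed rats exceeded every control rat and the groups overlapped, with a difference of 0.32. Ordered by mean, the exposed groups of D0 and D3 stood first with no overlap between them, and the 5 control groups, from 7.88 to 8.14, overlapped one another throughout. Within slides that held both groups the Prss30 difference ran from 3.4 to 3.7 at D0 and from 2.06 to 2.5 at D3, and without background subtraction it was 3.31 at D0 and 2.12 at D3.

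At D90 a single exposed rat carried most of the Prss30 difference. Exposed rat 3 had 11.06, just under the lowest exposed rat of D0 (11.25), whereas the other 4 had 8.17, 8.32, 8.09 and 8.18 and the control rats 7.88, 7.67, 7.71, 7.87 and 8.27. The mean difference was 0.88 with that rat and 0.31 without it, when the exposed group averaged 8.19 ± 0.10 (SD, n = 4).

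The list means of airway, pan-epithelial, alveolar type 2 and mast cell markers were also high in that rat, while those of 4 other lists were not. Bpifb1, an antimicrobial protein secreted by airway epithelium, was 13.9 in exposed rat 3 and 11.3 to 11.81 in the other 4. The mean signal of the 12 airway secretory and goblet markers was 10.57 in exposed rat 3 and 9.45 to 9.8 in the others, with 9 of the 12 highest in that rat. For the 7 ciliated markers it was 10.9 against 10.48 to 10.6, with all 7 highest in that rat, and for the 6 basal markers 8.34 against 7.63 to 7.79, with 3 of 6 highest. The pan-epithelial list mean was 13.21 against 12.92 to 13.04 (7 of 10 highest), the alveolar type 2 list mean 16.61 against 16.46 to 16.53 (6 of 8 highest) and the mast cell list mean 7.19 against 6.43 to 7.04 (6 of 10 highest). The T cell list mean was lower, 8.49 against 8.69 to 8.82. List means of alveolar type 1 (14.44 against 14.25 to 14.56) and macrophage markers (10.69 against 10.54 to 10.83) lay within the others. That of neutrophil markers (7.14 against 7.14 to 7.48) lay at their lower end. The part of these markers in the Prss30 value was not tested. Among the other proteases Tmprss9 was also highest in that rat (7.13 against 6.03 to 6.54). So, by small margins, were Prss22 (5.56 against 4.46 to 5.42), St14 (12.93 against 12.78 to 12.92) and Tmprss2 (12.68 against 12.57 to 12.64). Tmprss4 was second highest, Prss8 stood at rank 4 of the 5 exposed rats, and Prss27 was lowest in that rat. By whole-array measures the rat did not stand out: 126 genes lay over 1 log2 unit above all 4 others of the group, and in the other 4 rats that number ran from 61 to 306.

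**Figure D1:**
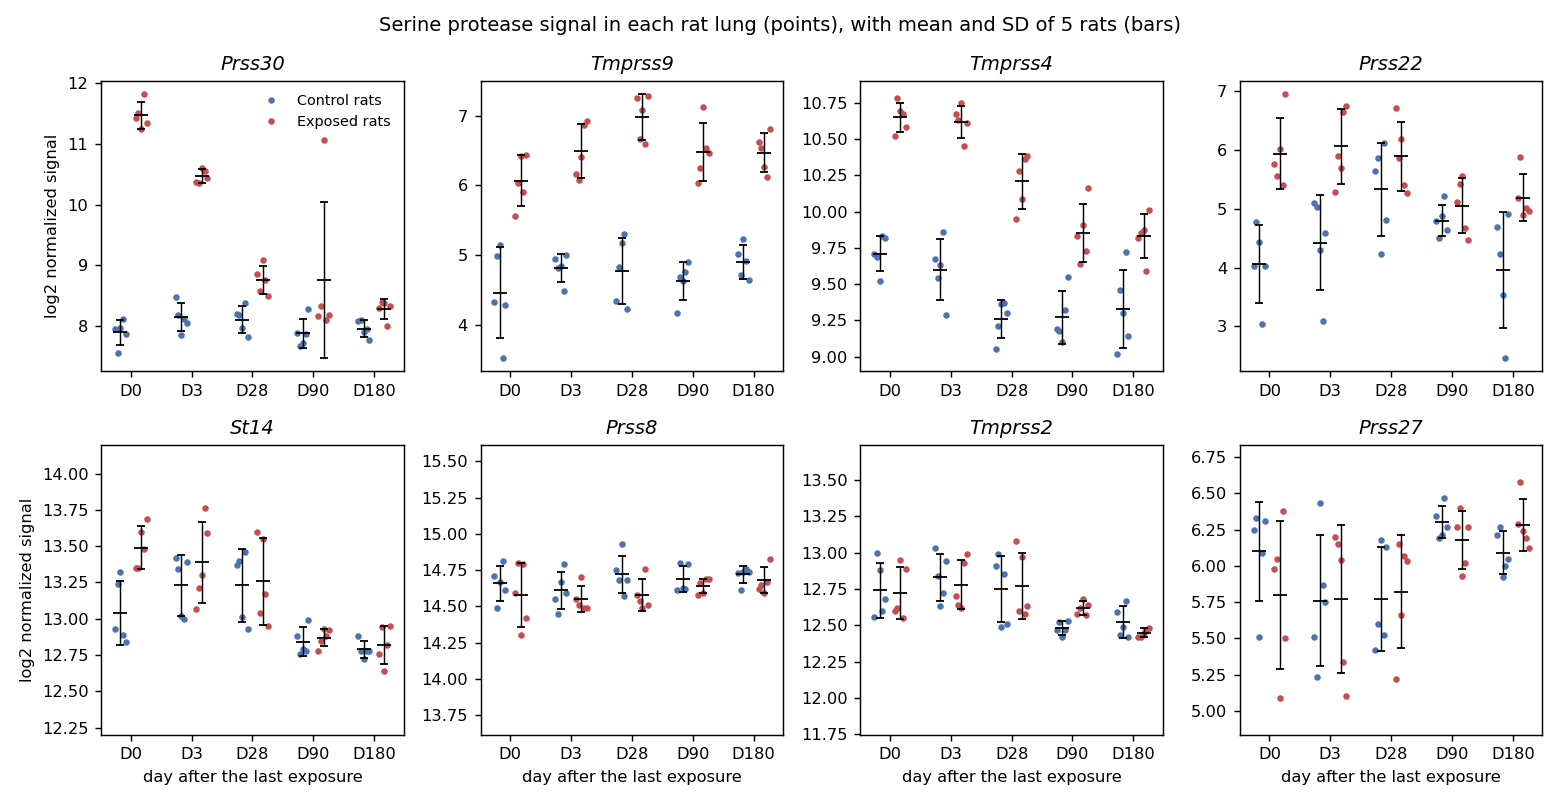
Log2 normalized signal (vertical axes, each with its own range) of the 8 proteases in each rat lung by day after the last exposure, control rats in blue and exposed rats in red, with the mean and SD of 5 rats as black bars. Prss30 is high at D0 and D3 and in 1 exposed rat at D90 (11.06), the exposed rats of Tmprss9 stay above all control rats at every day, and Prss8 keeps between 14.3 and 14.93 throughout.

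**Figure D2:**
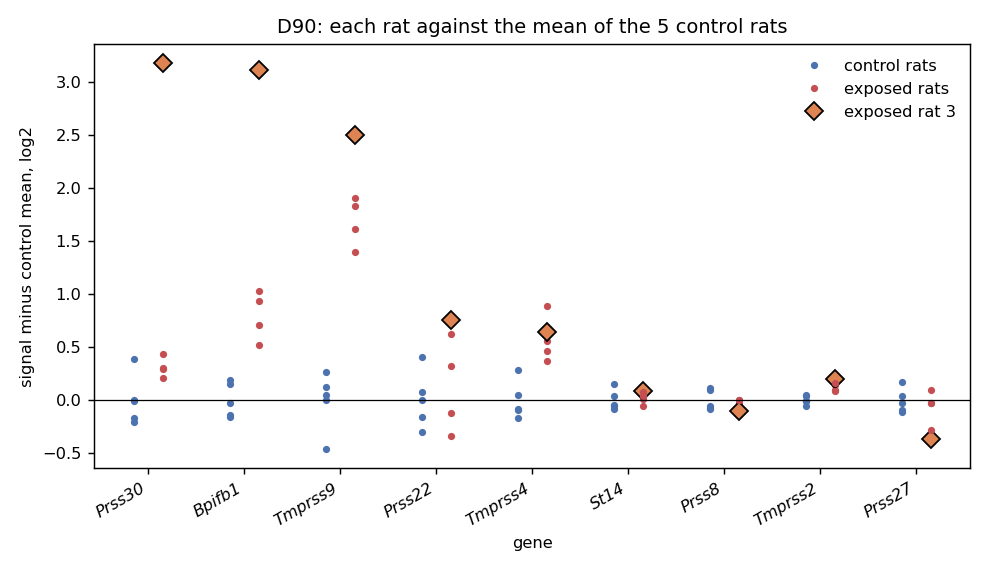
Signal of each rat at D90 minus the mean of the 5 control rats (log2, vertical axis) for Prss30, the airway gene Bpifb1 and the other 7 proteases, with control rats in blue, exposed rats in red and exposed rat 3 as a diamond. Exposed rat 3 stands apart in Prss30 (11.06 against 8.09 to 8.32 in the other exposed rats) and in Bpifb1 (13.9 against 11.3 to 11.81).

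Tmprss9 kept a higher signal in exposed rats through the last day. It encodes polyserase-1, a type II membrane protein with several protease units. Its brightest probe, at chr7:10321210-10321269 of build rn4, was dim in control rats: it was well above background on 14 of 25 control arrays and on 25 of 25 exposed arrays.

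At D0 the control rats had Tmprss9 signals of 4.33, 4.99, 5.15, 3.52 and 4.28 and the exposed rats 5.56, 6.03, 6.42, 5.91 and 6.43, a difference of 1.62. At D28 control rats had 4.34, 4.82, 5.17, 5.3 and 4.23 and exposed rats 7.26, 6.66, 7.09, 6.6 and 7.28, and the difference of 2.21 was the highest of the 5 days for this gene. At D180 control rats had 5.02, 4.71, 5.23, 4.91 and 4.64 and exposed rats 6.63, 6.53, 6.27, 6.12 and 6.81, a difference of 1.57. All 5 exposed rats lay above all 5 control rats at each of the 5 days, the closest pair being 5.15 and 5.56 at D0.

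The differences at D3 and D90 were 1.68 and 1.85. Ordered by mean, the exposed groups ran from D28 (6.98) through D3 (6.49), D90 (6.48) and D180 (6.47) to D0 (6.07), and each overlapped the next. The control groups lay between 4.46 and 4.9 and also overlapped one another.

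The size of the Tmprss9 difference depends on how background was treated, since the probe is dim. Without background subtraction, in the deposited normalized table, it was 0.68, 0.8, 1.14, 0.88 and 0.78 over the 5 days in order, and with normexp correction it ran from 0.54 to 0.94. The dimmer probe printed above was well above background on 0 of 25 control arrays and 10 of 25 exposed arrays. Well above background were 1 of 5 exposed arrays at each of D0, D3 and D28, 3 of 5 at D90 and 4 of 5 at D180, so neither group was measured well enough by that probe for a fold or a bound on one.

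**Figure D3:**
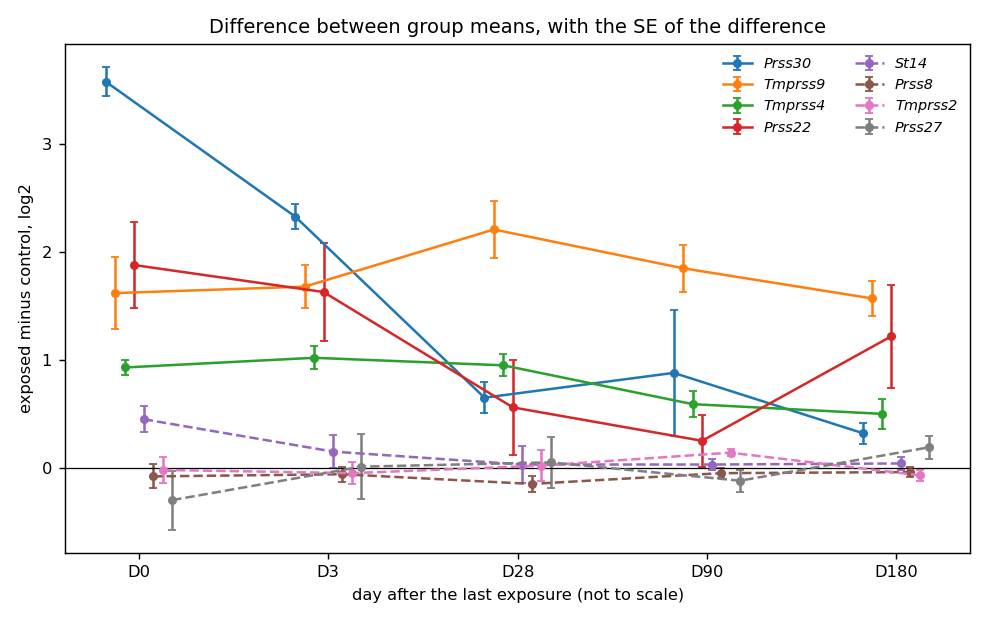
Exposed minus control difference of mean log2 signal (vertical axis) of the 8 proteases at each day, points joined by lines, with the standard error of the difference from 5 rats per group as bars. Prss30 goes from 3.58 at D0 to 0.32 at D180, Tmprss9 stays between 1.57 and 2.21, Tmprss4 moves from 0.93 to 0.5, and Prss8, Tmprss2 and Prss27 lie near 0.

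Among the 6 relatives, Tmprss4 and Prss22 were over-expressed in exposed rats, while St14, Prss8, Prss27 and Tmprss2 gave no call. A gene was called over-expressed when limma's Benjamini-Hochberg adjusted p over all genes was under 0.05 and the change at least 1.5-fold. Relatives called were 2 of 6 at D0, where 2.77% of all genes were over-expressed, 2 of 6 at D3 (1.98% of all genes), 1 of 6 at D28 (0.861%), 1 of 6 at D90 (0.246%) and 0 of 6 at D180 (0.246%). At D180, 2 of 6 were higher at an unadjusted limma p under 0.05, and 1 of them also passed the adjusted p. No relative was under-expressed at any day, and 0 of 6 were lower at an unadjusted p under 0.05 at each of the 5 days. Their median change was 0.22 at D0, against -0.01 over all genes, and 0.04 to 0.11 at the later days. Because the relatives were listed with results of these data known, these shares describe them and are no independent evidence.

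Tmprss4 was over-expressed at 4 of the 5 days. It encodes a membrane-anchored serine protease able to activate the epithelial sodium channel and the spike of several airway viruses, and it is raised in many carcinomas. At D0 control rats had 9.71, 9.69, 9.52, 9.83 and 9.82 and exposed rats 10.52, 10.78, 10.69, 10.67 and 10.58. The groups were apart by more than the spread within either, and the change was 0.93 ± 0.11 (SE), 1.91-fold (limma, adjusted p = 1.5e-08).

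The Tmprss4 change was 1.02 at D3 (adjusted p = 2.7e-09) and 0.95 at D28 (adjusted p = 6.4e-08), with all 5 exposed rats above all control rats at both days. At D90 exposed rats had 9.83, 9.64, 9.91, 9.73 and 10.16 and control rats 9.19, 9.18, 9.1, 9.32 and 9.55, still without overlap. That change of 0.59 (adjusted p = 0.0014) lies at the 1.5-fold limit, and the call was lost under 75th percentile scaling (0.58), with normexp correction (0.52), in the deposited normalized table (0.48), with the 3 probes averaged (0.47), in a fit of the D90 arrays alone, and without any 1 of control rats 1, 2 and 3 or exposed rats 3 and 5, where it ran down to 0.51.

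By D180 exposed rats had 9.82, 9.85, 9.87, 9.59 and 10.01 and control rats 9.02, 9.46, 9.3, 9.72 and 9.14, and 4 of 5 exposed rats exceeded every control rat. The change of 0.5 passed the adjusted p (0.012) and not the fold limit, which it passed with the 3 probes averaged (0.68) and without control rat 4 (0.6). In Tmprss4 at D180 the adjusted p was itself lost in the deposited normalized table (0.37, limma adjusted p = 0.08), in a fit of the D180 arrays alone, and without control rat 1 (0.42) or control rat 5 (0.45). All 3 Tmprss4 probes were well above background on all 50 arrays, and each was higher in exposed rats at every day, by 0.93, 1.04 and 0.89 at D0 and by 0.5, 0.78 and 0.75 at D180. Within slides that held both groups, Tmprss4 was higher in exposed rats on 4 of 4 slides at D0 and D3 and on 3 of 3 at D28, D90 and D180.

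Prss22 was over-expressed at D0 and D3. It encodes tryptase epsilon, which is made by airway epithelium rather than mast cells and can activate pro-urokinase. At D0 control rats had 4.03, 4.77, 4.44, 3.03 and 4.02 and exposed rats 5.76, 5.56, 6.01, 5.41 and 6.95. The groups did not overlap, the change was 1.88 ± 0.41 (SE), 3.68-fold (limma, adjusted p = 0.00074), and 2 of the 5 control arrays against 5 of the 5 exposed arrays were well above background.

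At D3 the Prss22 values were 5.1, 5.03, 4.3, 3.09 and 4.58 in control and 5.29, 5.89, 5.69, 6.65 and 6.75 in exposed rats, a change of 1.63 (adjusted p = 0.0045), again with no overlap. At D28 (0.56, adjusted p = 0.53), D90 (0.25, adjusted p = 1) and D180 (1.22, adjusted p = 0.19) the groups overlapped, although at D180 4 of 5 exposed rats exceeded every control rat. With slide as a block the D28 change was 0.69 (adjusted p = 0.042) and the D180 change 1.03 (adjusted p = 0.0056), and both were then called. In a fit of the D3 arrays alone the D3 call was lost. Without background subtraction the D0 change was 0.74 and the D3 change 0.71, both still called.

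St14 encodes matriptase, the protease at the head of the cascade. At D0 control rats had 12.93, 13.24, 13.32, 12.89 and 12.84 and exposed rats 13.35, 13.35, 13.6, 13.48 and 13.69. The groups did not overlap, and the change of 0.45 ± 0.12 (SE) had an adjusted p of 0.0086 and reached 1.37-fold, under the limit. It was higher in exposed rats on 4 of 4 slides at D0, by 0.36 to 0.52, and on 4 of 4 slides at D3, by 0.19 to 0.34. At D3 the pooled change was 0.15 (adjusted p = 0.53), at D28 and D90 0.03 and at D180 0.04. With slide as a block the limma change was 0.43 at D0 (adjusted p = 7.8e-09) and 0.26 at D3 (adjusted p = 0.00022), both under the fold limit.

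Prss8 encodes prostasin, the best known activator of the epithelial sodium channel. Its signal lay between 14.3 and 14.93 in all 50 rats, and the change ran from -0.15 at D28 to -0.04 at D180 (lowest adjusted p = 0.34). The 95% interval of the D0 change ran from -0.24 to 0.08 and that of D28 from -0.3 to 0.01, so a rise of 1.5-fold lay outside both. With slide as a block the D0 change was -0.12 (adjusted p = 0.029) and the D28 change -0.17 (adjusted p = 0.007), both under the fold limit.

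Tmprss2 had signals of 12.42 to 13.08 in the 50 rats. Its changes ran from -0.07 at D180 to 0.14 at D90, with no call. At D90 the 5 exposed rats (12.57 to 12.68) all lay above the 5 control rats (12.42 to 12.53), yet the adjusted p was 1 over the shared estimate of spread, and the 95% interval ran from -0.07 to 0.34.

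Prss27 encodes marapsin, which is found in stratified squamous epithelia. Its brighter probe had signals of 5.09 to 6.58. The change ran from -0.3 at D0 (95% interval -0.74 to 0.14) to 0.19 at D180 (-0.25 to 0.63) with no call, and the intervals are wide enough at D180 to hold a 1.5-fold rise. Its dimmer probe was well above background on 9 of 50 arrays and is not read further.

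Whether the effect of exposure on the 6 relatives changed after D0 was tested in the same limma fit, and it gave no call. Called were 0 of 6 at D3 (0.678% of all genes), 0 of 6 at D28 (1.61%), 0 of 6 at D90 (2.17%) and 0 of 6 at D180 (2.24%). At an unadjusted p under 0.05 there were 0, 2, 3 and 2 of them at these days, with no share of all genes given beside these counts. The Prss22 effect minus that of D0 was -1.32 at D28 (adjusted p = 0.29) and -1.64 at D90 (adjusted p = 0.12), and with slide as a block the fit called it lower at all 3 of D28 (-1.31, adjusted p = 0.0076), D90 (-1.75, adjusted p = 0.00016) and D180 (-0.96, adjusted p = 0.042). For Tmprss4 the difference from D0 was 0.09, 0.02, -0.35 and -0.43 over the 4 later days in order (lowest adjusted p = 0.13). The St14 effect at the later days differed from that of D0 by -0.42 to -0.3 (lowest adjusted p = 0.23). With slide as a block they were -0.33 at D28 (adjusted p = 0.0015), -0.41 at D90 (adjusted p = 5.1e-05) and -0.4 at D180 (adjusted p = 7.3e-05), all under the fold limit.

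The control rats show how the 8 proteases varied between days without exposure. Prss30 and Tmprss9 were chosen by exposed against control rats, which drew on these same control arrays. For these 2 genes the counts below are therefore a description. Between D0 and D3 none of the 8 was called (2.33% of all genes were called in either direction), and the differences ran from -0.34 to 0.36 with 0 of 8 at an unadjusted limma p under 0.05. Between D3 and D28 none was called (0.639% of all genes), with 2 of 8 at an unadjusted p under 0.05. Prss22 was 0.91 higher at D28 (adjusted p = 0.47), and with slide as a block that difference (0.87) passed both limits (adjusted p = 0.017). Tmprss4 differed by -0.34 (adjusted p = 0.14). Between D90 and D180 none of the 8 was called (0.0198% of all genes), with 1 of 8 at an unadjusted p under 0.05, which was Prss22 with -0.84 (adjusted p = 1).

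Prss30, Prss22 and Prss27 lie side by side on chromosome 10, and their exposed-minus-control values are set side by side here. In the files' rn4 coordinates the probes start at 13226073, 13247655 and 13296066 or 13296246. At D0 the difference was 3.58 for Prss30, 1.88 for Prss22 and -0.3 for Prss27. Of the 3 protein-coding genes on each side of Prss30 in RefSeq, 5 of 6 were tested, and Prss22 was the 1 called at any day. Kctd5, beyond Prss27, differed by -0.06 at D0 (adjusted p = 0.87). Zg16b and Sbp, on the other side, differed by 0.12 and 0.11 at D0 with no call. Around Tmprss9 none of the 6 neighbours (Gadd45b, Lmnb2, Timm13, Sppl2b, Lsm7 and Lingo3) was called at any day, and their differences ran from -0.51 to 0.38. The most negative was Gadd45b at D3 (adjusted p = 2.2e-05), under 1.5-fold.

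Genes whose 10 group means followed those of Prss30 most closely were Ltb (Pearson r = 0.985), Tmc5 (0.979), Tmem173 (0.972), Rasgef1c (0.97) and Zfyve28 (0.967). Among these the difference at D0 ran from 1.27 for Ltb, a lymphocyte cytokine, to 2.94 for Rasgef1c. The signals of Rasgef1c and Zfyve28 were low, with control means of 3.29 and 2.57 at D90, which limits the reading of their differences. In exposed rat 3 at D90 Tmc5 was 8.59 against 6.84 to 7.46 in the other 4, whereas Ltb (12.21 against 12.39 to 12.6) and Tmem173 (12.43 against 12.51 to 12.63) were below them. Rasgef1c (4.24 against 3.43 to 5.14) and Zfyve28 (2.7 against 2.34 to 3.05) lay within the other 4. Closest to Tmprss9 were Lpo (0.974), the lactoperoxidase of airway secretions, the kininogens Kng1l1 (0.946) and Kng1 (0.94), Mylk2 (0.936) and Ceacam16 (0.925). These correlations are over 10 group means that hold the exposure difference itself, and all genes share the same arrays, so they are a description. Between Prss30 and Tmprss9 the same measure was 0.543, and between Prss30 and Tmprss4 0.893.

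The partners of these proteases were taken as 4 lists, with 87 of 92 genes tested. Counted together, 5 were over-expressed and 3 under-expressed at D0, where 2.77% and 1.51% of all genes were. At D3 there were 4 and 5 (1.98% and 1.51% of all genes), at D28 1 and 1 (0.861% and 0.468%) and at D90 1 and 0 (0.246% and 0.135%). None was called in either direction at D180 (0.246% and 0.0793%). At D180, 6 of the 87 had an unadjusted limma p under 0.05, a count given without the share of all genes. The lists were drawn up with results of these data known, so the counts are a description.

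Of 9 protease inhibitors, 2 were over-expressed at D0, and 2 over-expressed and 1 under-expressed at D3, with a list median of 0.12 at D0 against -0.01 over all genes. Serpine2 (protease nexin-1, which blocks prostasin, thrombin and plasminogen activators) rose from 8.12 ± 0.08 to 8.79 ± 0.05 (SD, n = 5 each) at D0, by 0.68 (adjusted p = 4.8e-08), and by 1.13 at D3 (adjusted p = 1.2e-13), with no overlap at either day. A2m (alpha-2-macroglobulin, a broad protease trap) rose by 0.78 at D0 (adjusted p = 0.0057) and by 0.69 at D3 (adjusted p = 0.022). Serpinc1 (antithrombin), named after its values were seen, fell by 0.95 at D3 (adjusted p = 0.015) and was well above background on 1 of the 10 arrays of that day. Spint1 and Spint2, the membrane Kunitz inhibitors of matriptase and prostasin, gave no call at any day.

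Of 14 substrates and targets, 1 was over-expressed at D0. Met, the receptor of hepatocyte growth factor, which matriptase helps to activate, rose by 0.76 at D0 (adjusted p = 1.9e-09) and by 0.62 at D3 (adjusted p = 4.8e-07). Of the sodium channel subunits, Scnn1a fell by 0.84 (adjusted p = 2.4e-07) and Scnn1g fell by 0.74 (adjusted p = 9.1e-09) at D3, each without overlap between the groups. At D0 they were different by -0.58 (adjusted p = 0.00014) and -0.41 (adjusted p = 0.00042), under the fold limit, and at D28, D90 and D180 neither passed the adjusted p. Scnn1b, the other channel subunit tested, gave no call at any day. Hgf itself fell by 0.72 at D28 (adjusted p = 0.031), with overlapping groups. Scnn1a, Scnn1g and Hgf, each called at 1 day, are named after their values were seen.

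Of 5 genes of sodium and liquid transport, Cftr, the chloride channel of airway liquid, was the 1 called. It rose by 0.94 at D0 (adjusted p = 7.5e-09), from 10.03 ± 0.12 to 10.97 ± 0.17 (SD, n = 5 each), and was 0.57 higher at D3 (adjusted p = 0.0002), under the fold limit.

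Of 59 other trypsin-like proteases tested, 1 was over-expressed and 3 under-expressed at D0. Klk13, a tissue kallikrein, rose by 1.27 at D0 (adjusted p = 4.5e-08), by 1.38 at D3 (adjusted p = 1e-08), by 0.83 at D28 (adjusted p = 0.00066) and by 0.66 at D90 (adjusted p = 0.021). At D180 it was 0.52 higher with no call (adjusted p = 0.12), although the groups did not overlap at any of the 5 days. The D28 call of Klk13 was lost with normexp. Its D90 call was lost with normexp and in the deposited normalized table. The D90 call was also lost without any 1 of control rats 1 and 3 or exposed rats 2, 4 and 5. Plat, the tissue plasminogen activator, fell by 0.92 at D0 (adjusted p = 1.6e-07). Tmprss11e fell by 0.78 (adjusted p = 0.019) and Corin, the protease that processes atrial natriuretic peptide, fell by 0.69 (adjusted p = 0.034) at D0, both dim, with overlapping groups. The Tmprss11e call was lost without control rat 4 or 5 or exposed rat 3 (-0.61 at the smallest), and the Corin call without control rat 2, 3 or 5 or exposed rat 2, 3 or 4 (-0.54 at the smallest). Both calls were also lost with 75th percentile scaling (-0.64 and -0.49), with normexp (-0.32 and -0.23), in the deposited normalized table (-0.31 and -0.27) and in a fit of the D0 arrays alone. At D3 Corin fell by 0.7 (adjusted p = 0.039), and Prss12 (neurotrypsin), named after its values were seen, fell by 0.59 (adjusted p = 4.2e-07) without overlap. In this list 5 genes were well above background on no array and 12 on all 50.

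**Figure D4:**
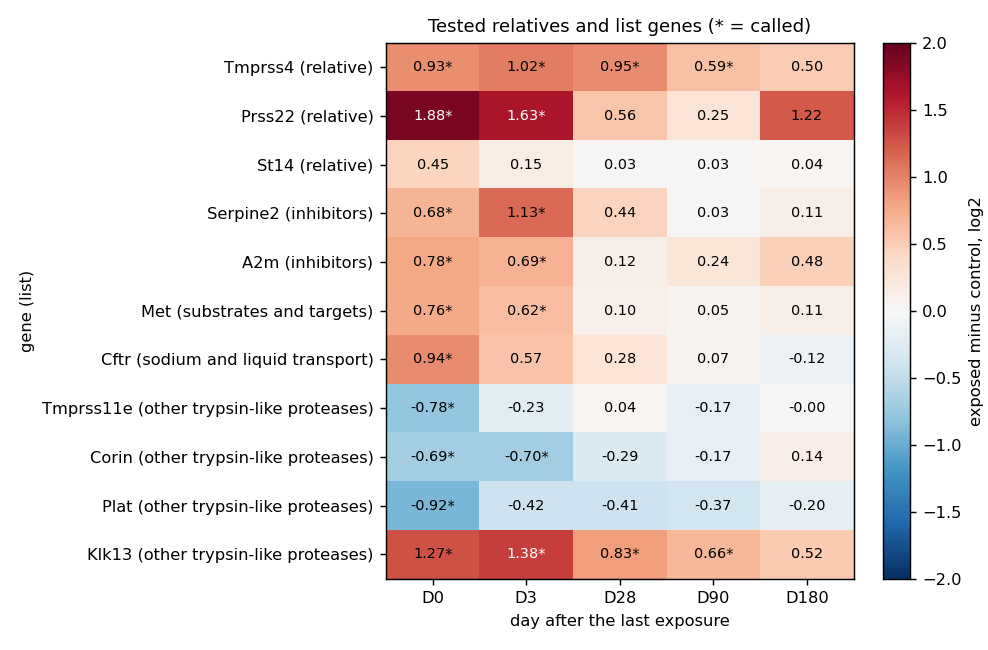
Exposed minus control change of mean log2 signal (colour and printed value) for 3 tested relatives and 8 named genes of the protease lists, by day after the last exposure, with a star where the gene was called. Klk13 is called at 4 of the 5 days, Tmprss4 at 4, and Plat, Corin and Tmprss11e are the genes lower in exposed rats at D0. The D90 calls of Klk13 and Tmprss4, the D28 call of Klk13 and the D0 calls of Corin and Tmprss11e were lost under some alternatives.

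Markers of cell types stood beside these changes at D0. Over all genes at D0, 2.77% were over-expressed and 1.51% under-expressed, and all marker counts here and in the next paragraph stand beside these shares. The marker counts at an unadjusted p are given without the share of all genes. Of 10 pan-epithelial markers 1, the epithelial transcription factor Elf3, rose by 1.09 (adjusted p = 1.2e-09), and the list mean ran from 13.14 to 13.41 in control and from 13.26 to 13.45 in exposed rats. Of 12 airway secretory and goblet markers 2 rose, Bpifb1 by 2.62 (adjusted p = 8.3e-11) and Foxa3 by 1.39 (adjusted p = 0.029, dim in most rats). Their list mean ran from 9.09 to 9.83 in control and from 9.72 to 10.39 in exposed rats, and Tff2 was well above background on no array. Of 6 basal markers 1, Dapl1, rose by 0.81 (adjusted p = 0.022), with list means of 7.16 to 7.88 and 7.61 to 7.99, and of 7 ciliated markers none was called (2 at an unadjusted limma p under 0.05), with list means of 10.71 to 10.92 in control and 10.68 to 10.83 in exposed rats.

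Of 10 neutrophil markers 2 rose at D0, S100a9 by 1.69 (adjusted p = 1.4e-10) and S100a8 by 1.37 (adjusted p = 8e-09), and the granule gene Elane was well above background on 2 of 50 arrays. Their list mean ran from 7.07 to 7.72 in control and from 7.25 to 7.81 in exposed rats. Of 6 T cell markers 2 rose, Cd3g by 0.67 (adjusted p = 1.2e-05) and Cd5 by 0.66 (adjusted p = 0.00036), with list means of 7.98 to 8.45 and 8.5 to 8.88. Of 10 mast cell markers 1, the tryptase Tpsb2, fell by 0.69 (adjusted p = 0.011), with list means of 6.24 to 6.81 and 5.99 to 6.63. None of 8 alveolar type 2, 7 alveolar type 1 and 7 macrophage markers was called at D0 (4, 4 and 3 of them at an unadjusted limma p under 0.05), although the alveolar type 1 list mean lay lower in exposed rats (14.16 to 14.39 against 14.56 to 14.89) and the alveolar type 2 list mean higher (16.56 to 16.66 against 16.31 to 16.41). The part of these cell types in the protease values was not tested.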

How the data were processed

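Total RNA of the accessory lung lobe of 50 rats was labelled with Cy3 and read on 1-colour Agilent arrays. Spot intensity values were deposited as made by Agilent Feature Extraction 11.0.1.1, per the labels and file headers, with background subtracted and each array detrended but not scaled against the others. The table of normalized intensity made by the authors, linear, without background subtraction and quantile normalized as its values show, served as an alternative. The deposited 0 and 1 marks of the software gave spots well above background.

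Here control spots and outlier spots (324 to 872 per array) were left out, spots of a probe averaged, log2 of the processed intensity taken and arrays quantile normalized. Probes were kept if brighter than 95% of the 308 negative control spots on at least 5 arrays (29549 probes, 25208 genes), with the brightest probe for each gene. Group means of all 50 arrays were fitted with limma 3.58.1 (R 4.3.3) and Benjamini-Hochberg adjustment over all genes. A gene was called at an adjusted p under 0.05 and a change of at least 1.5-fold. Shares of all genes are given for calls only, so counts at an unadjusted p cannot show an excess over all genes. Each group holds 5 rats, and that number limits the precision.

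The members, the gene lists and the tests were chosen with earlier results of these data known. Named genes were the 8 proteases, list genes called at D0 or at 2 or more later days (at most 12 per list), markers called at D0 (at most 4 per list), the 5 genes of highest correlation among those whose group means span at least 1 log2 unit, and the 3 protein-coding neighbours on each side. The fit was tested on simulated data.

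Alternatives were 75th percentile scaling, normexp correction (offset 50), the deposited normalized table, other filters on dim probes, the mean of all probes, slide or replicate number as a block, only the arrays of the days compared, no fold limit, and leaving out each array.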

Additional observations from a re-analysis of the deposited data

Results flagged for a closer look

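Each of the 8 proteases in each of the 10 groups was searched for 1 rat that stood apart from the other 4 by more than 0.71 of the range of its group. Of the 80 sets of 5 rats, 4 held such a rat, and chance alone gives about 1 in 20. Prss30 was 11.06 in exposed rat 3 of D90, against 8.32 in the next rat. Prss30 was 7.99 in exposed rat 4 of D180, the lowest of its group, with 8.3 in the next. Prss8, the prostasin gene, was 14.7 in exposed rat 3 of D3 (next 14.55) and 14.61 in control rat 2 of D180 (next 14.73). No cause was tested for any of these rats.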

How the results depend on the processing

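Of 608 single values computed under alternatives other than leaving out an array, 558 kept their direction and side of the threshold or moved by less than the spread between rats, and of 740 with 1 array left out, 695 did. For the rest the cause was not tested. Relatives over-expressed were 1 at D3 with the arrays of that day alone, 2 at D28 with slide as a block, 0 at D90 with 75th percentile scaling, normexp, the deposited normalized table, the mean of probes or the arrays of that day alone, and 1 at D180 with the mean of probes, slide as a block or no fold limit. Leaving out 1 array gave 0 to 1 at D90 and 0 to 1 at D180 (1 without control rat 4). Protease partner genes called in either direction were 4 at D0 with normexp or the deposited table and 17 with no fold limit, against 8. At D3 they were 4, 5 and 18, against 9. At D28, against 2, they were 0 with normexp, 1 with the deposited table, the replicate block or the arrays of that day alone, 6 with no fold limit and 1 to 3 with 1 array left out (1 without control rat 1, 2 or 4 or exposed rat 2 or 4, and 3 without control rat 5 or exposed rat 1). At D90, against 1, they were 0 with normexp or the deposited table and 0 to 1 with 1 array left out (0 without control rat 1 or 3 or exposed rat 2, 4 or 5). With slide as a block 1 relative, Prss22, had a different effect from D0 at D28, D90 and D180, and 1 protease, again Prss22, differed between control rats of D28 and D3. Directions turned in the following values, none of them called. St14 at D28 was -0.01 with normexp and -0.004 with the deposited table, and at D180 -0.002 with the latter. Prss27 at D3 was -0.02 with normexp, -0.32 with the mean of probes and -0.17 with slide as a block, and at D28 -0.08 with slide as a block. The Tmprss4 effect minus that of D0 was -0.04 at D3 and -0.09 at D28 with the mean of probes. Leaving out 1 array gave -0.06 to 0.11 for St14 at D28, -0.13 to 0.18 for Prss27 at D3, -0.04 to 0.2 for Prss27 at D28, -0.08 to 0.05 for Tmprss2 at D0, -0.06 to 0.08 for Tmprss2 at D28, -0.58 to 0.01 for the Prss22 effect at D3 minus D0 and -0.03 to 0.08 for the Tmprss4 effect at D28 minus D0. Among partner genes at D0, the calls of Serpine2 (0.56 and 0.58), A2m (0.52 and 0.58), Tmprss11e (-0.32 and -0.31) and Corin (-0.23 and -0.27) were lost with normexp and the deposited table, and those of Tmprss11e (-0.64) and Corin (-0.49) also with 75th percentile scaling. Over all genes at D180, 62 were over-expressed and 20 under-expressed, and 50 and 28 with 75th percentile scaling. At D0 the numbers were 699 and 380, and 407 and 175 with normexp. Deviations of control and exposed rats of the same number had correlations of -0.339 to 0.449 (25 pairs, 8 above 0.1). Rats of unequal number were not compared, so whether the numbers pair the rats was not settled. The replicate block changed the call count of the partner genes at D28 (1) and D3 (8), and gave 2, 2, 1, 1 and 0 relatives over-expressed at the 5 days. The differences between control rats of different days could not be fitted with that block. Signal near background limits Tmprss9, Prss22 and Prss27: the Tmprss9 difference at D0 was 0.54 with normexp and 0.68 with the deposited table, against 1.62.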
